A study of Mus musculus with 6 samples.

Results

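The genes described here are 10 genes of the contractile and calcium machinery of fast-twitch muscle fibres, namely Myh1, Myh2, Myh4, Mylpf, Myl1, Actn3, Atp2a1, Casq1, Mybpc2 and Ckm. They were taken by name from the platform annotation and were read by 13 of the 29922 probes on the array. Myh1, Actn3 and Casq1 had 2 probes each and the other 7 genes had 1. The arrays held 16675 named genes in all. Muscle, liver and adipose tissue came from ob/ob mice (strain B6.V-Lepob/J), which lack functional leptin and become obese and insulin resistant, and every group carried this mutation. Mice fasted for 4 h were dosed by mouth with MCSE, which is a water extract made from the seeds of Momordica charantia (bitter melon), or with phosphate-buffered saline (PBS). A glucose load of 1 g/kg followed 15 min later by intraperitoneal injection, and tissues were taken 4 h after it. Each of the 6 combinations, MCSE muscle, PBS muscle, MCSE liver, PBS liver, MCSE adipose and PBS adipose, was measured on 1 one-colour array. The labels gave neither the age or sex of the mice, nor the muscle that was dissected, nor whether several mice were pooled.

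Fast-twitch fibres shorten quickly and tire early. Myosin motors with fast heavy chains pull on actin, and the free calcium that starts a contraction is released from the sarcoplasmic reticulum and pumped back into it within milliseconds. In the limb muscles of mice most fibres are fast, and they are graded by their heavy chain, with Myh4 in the fastest (type IIb), Myh1 in the intermediate IIx and Myh2 in the more oxidative IIa fibres, while slow fibres use Myh7. The other members serve the same machine. Mylpf and Myl1 encode the regulatory and the essential light chain of fast myosin, Mybpc2 the fast myosin-binding protein C, and Actn3 the alpha-actinin that anchors actin at the Z-disc of fast fibres. Atp2a1 encodes the calcium pump of the reticulum, Casq1 the calsequestrin that stores calcium inside it, and Ckm the muscle creatine kinase that regenerates ATP from phosphocreatine.

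The fast heavy chain genes and their developmental relatives stand side by side on chromosome 11 in the RefSeq annotation, in the order Myh3, Myh2, Myh1, Myh4, Myh8 and Myh13. Promoter sequences of 300 bases, from 250 before to 50 after the annotated start, were found in RefSeq (build GRCm38.p6) for 9 of the 10 members. The 3 below are shown because they belong to the adjacent heavy chains that mark the types of fast fibre. Capitals mark matches, on either strand, to TATAAA, to the MEF2 box (a binding motif of the MEF2 muscle factors) and to the CArG box (the motif of serum response factor).
Myh2 (chr11:67170777-67171076, plus strand): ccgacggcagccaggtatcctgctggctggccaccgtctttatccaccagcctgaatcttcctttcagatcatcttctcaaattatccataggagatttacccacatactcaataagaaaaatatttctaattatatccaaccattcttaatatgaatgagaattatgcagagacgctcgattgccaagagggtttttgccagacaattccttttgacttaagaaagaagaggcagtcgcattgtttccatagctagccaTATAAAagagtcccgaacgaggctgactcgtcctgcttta
Myh1 (chr11:67199852-67200151, plus strand): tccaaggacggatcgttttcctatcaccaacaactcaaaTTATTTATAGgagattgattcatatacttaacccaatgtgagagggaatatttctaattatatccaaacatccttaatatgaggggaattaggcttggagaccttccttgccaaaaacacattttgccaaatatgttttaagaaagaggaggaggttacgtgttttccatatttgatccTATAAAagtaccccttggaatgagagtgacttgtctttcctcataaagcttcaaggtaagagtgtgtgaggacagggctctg
Myh4 (chr11:67237562-67237861, plus strand): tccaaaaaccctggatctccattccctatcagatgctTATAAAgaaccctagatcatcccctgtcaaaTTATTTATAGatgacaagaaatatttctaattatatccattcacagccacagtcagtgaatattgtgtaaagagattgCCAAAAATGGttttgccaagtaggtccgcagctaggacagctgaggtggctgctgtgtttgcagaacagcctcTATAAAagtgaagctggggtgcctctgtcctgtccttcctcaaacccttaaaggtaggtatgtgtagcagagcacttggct
Myh1 and Myh4 held the same MEF2 box, TTATTTATAG, from 211 to 202 bases before the start in Myh1 and from 182 to 173 bases before it in Myh4. In both it overlapped a TATAAA match on the minus strand. Myh4 alone of the 9 promoters held a CArG box. A TATAAA match lay 32 to 27 bases before the start in Myh1 and 31 to 26 bases before it in Myh4, and Myh4 held a further one 213 to 208 bases before its start, whereas that of Myh2 lay 11 to 16 bases after its annotated start. Among all 32851 annotated promoters, 3.19% held a MEF2 box, 1.63% a CArG box and 13.6% TATAAA. Among the 9 members these motifs were found in 2, 1 and 4 promoters (TATAAA also in Myl1). The E-box CANNTG, to which myogenic factors bind, was in 7 of 9 against 72.3% of all promoters and is not capitalised above. Such matches describe these windows and do not show binding.

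All 6 arrays shared 1 distribution of values, with a median log2 intensity of 8.95 and a brightest probe of 16.41, and values are given on this log2 scale. The liver and adipose labels were not clean. Defining markers of white adipocytes had medians of 15.12 and 14.81 under the liver label (MCSE, then PBS) and of 15.13 and 9.36 under the adipose label. In the same order, hepatocyte markers had medians of 12.06, 12.69, 11.98 and 8.61, and kidney markers 13.79, 12.22, 13.64 and 10.25. Proteasome genes, which every cell uses, had a median of 9.03 on the PBS adipose array against 12.99 to 13.34 on the other 5, and its correlation with the other arrays was 0.307 to 0.517. The MCSE adipose and MCSE liver arrays correlated at 0.982 over all probes. "Liver" and "adipose" therefore name labels below.

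All 10 fast-fibre genes were far brighter on the muscle arrays than under either other label. The heavy chain Myh4 lay at 15.48 on the MCSE muscle array and 16.05 on the PBS muscle array, against 8.76 and 8.16 on the MCSE and PBS liver arrays and 9.51 and 9.20 on the MCSE and PBS adipose arrays. Its neighbour Myh1 lay at 15.81 and 15.87 in MCSE and PBS muscle, against 8.99 and 8.0 under the liver label and 8.93 and 8.03 under the adipose label. Myh2 gave 15.76 and 15.47 in MCSE and PBS muscle, against 8.11 and 8.60 under the liver label and 8.19 and 9.15 under the adipose label. On these bright probes the muscle values of the 3 heavy chains did not overlap with those of the other arrays, and several values outside muscle lay below the median of all probes.

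Among the myosin partners, the regulatory light chain gene Mylpf lay at 16.01 on both muscle arrays, against 9.30 and 8.59 on the MCSE and PBS liver arrays and 9.37 and 8.30 on the MCSE and PBS adipose arrays. Myl1, the essential light chain gene, lay at 15.95 and 15.85 in MCSE and PBS muscle, against 10.35 and 10.36 under the liver label and 10.31 and 9.59 under the adipose label. Mybpc2 lay at 15.77 and 15.89 in MCSE and PBS muscle, against 8.35 and 8.44 under the liver label and 8.38 and 8.84 under the adipose label. Outside muscle Myl1 was thus above the median of all probes on all 4 arrays, and Mybpc2 below it on all 4.

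The calcium, Z-disc and energy genes gave the same picture with one exception. Atp2a1, the calcium pump, lay at 15.98 and 16.02 in MCSE and PBS muscle, against 8.93 and 9.33 under the liver label and 8.86 and 8.33 under the adipose label. Ckm lay at 15.83 and 15.96 in MCSE and PBS muscle, against 8.55 and 9.02 under the liver label and 8.63 and 9.60 under the adipose label. The brighter Actn3 probe lay at 16.01 and 16.04 in MCSE and PBS muscle, against 8.86 and 9.52 under the liver label and 8.66 and 10.05 under the adipose label. The exception was Casq1, whose groups were closer together. One Casq1 probe lay at 13.80 and 14.06 in MCSE and PBS muscle, against 9.76 and 10.21 under the liver label and 9.51 and 11.65 under the adipose label. The other lay at 14.61 and 14.24 in MCSE and PBS muscle, with 9.02 to 9.26 on the other 4 arrays. The probes thus disagreed on the PBS adipose array, where the first was 2.14 brighter than on the MCSE adipose array and the second 0.12 brighter.

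**Figure D1:**
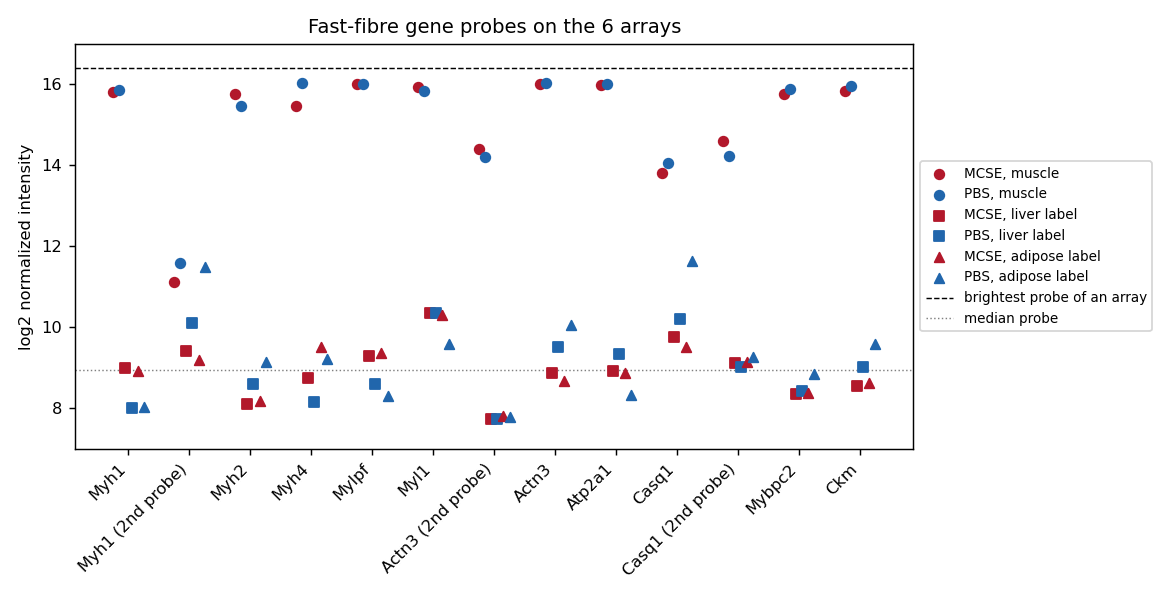
Log2 normalized intensity of the 13 probes of the fast-fibre genes (horizontal axis) on each of the 6 arrays; circles are muscle, squares the liver label, triangles the adipose label, red MCSE and blue PBS, and the lines mark the brightest probe of an array (16.41) and the median probe (8.95). Both muscle arrays stand above the 4 others for 12 of 13 probes, and a second Myh1 probe at 11.11 and 11.59 overlaps with the PBS adipose array at 11.49.

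Both muscle arrays lay above the 4 others for the brightest probe of 10 of 10 members, against 10.9% of all named genes, and by at least 2-fold for 10 of 10 against 2.57%. Among all 13 probes this held for 12. The remaining probe, a second one for Myh1, lay at 11.11 and 11.59 in MCSE and PBS muscle, against 9.41 and 10.11 under the liver label and 9.19 and 11.49 under the adipose label. Since these are bulk samples, fewer fast fibres and less RNA per fibre cannot be told apart in any of these values.

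The gap was tested with limma over all 16675 named genes, with the MCSE and PBS array of a label as its 2 samples, so that the spread held any effect of MCSE. A gene was called when its adjusted p was below 0.05 and its gap 2-fold or more. By this rule 8 of the 10 members were higher in muscle than under the liver label, where 0.216% of all genes were called higher. The same 8 were higher than under the adipose label, where 0.264% of all genes were called higher and 0.006% lower. The comparisons share the muscle arrays and 1 estimate of the spread. Mybpc2 had the largest gap to the liver label and the smallest error, 7.44 ± 0.28 (SE, limma adjusted p 0.0309), and 7.22 ± 0.28 to the adipose label (limma adjusted p 0.032). Myh1 exceeded the liver label by 7.35 ± 0.50 (limma adjusted p 0.0361), Myh4 by 7.31 ± 0.37 (0.0309) and Myh2 by 7.26 ± 0.44 (0.0352). Against the adipose label the gaps of the heavy chains were 7.36 ± 0.50 for Myh1 (limma adjusted p 0.0427), 6.95 ± 0.44 for Myh2 (0.0346) and 6.40 ± 0.37 for Myh4 (0.032). Myl1 had the smallest gap among the genes that passed, 5.55 ± 0.33 to the liver label (limma adjusted p 0.0352).

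Actn3 and Casq1 did not pass on their brightest probe. Actn3 differed from the liver label by 6.83 ± 0.56 (SE, limma adjusted p 0.056) and Casq1 by 3.95 ± 0.77 (limma adjusted p 0.29). On their other probes both passed when all 29922 probes were fitted, Actn3 with 6.57 ± 0.17 and a limma adjusted p of 0.0279, and Casq1 with 5.36 ± 0.21 and 0.0303. In that fit Myh1 and Mylpf no longer passed (limma adjusted p 0.0553 for each), so 8 members were called as before, of which 6 were shared. The calls rested on the choice of arrays and model. With limma 0 members passed when treatment was a term of the fit (lowest adjusted p 0.15) or eBayes used a trend (0.0671), although each estimate stayed the same. Leaving out either muscle or either liver-labelled array also gave 0 against the liver label, and leaving out either adipose-labelled array gave 10, when 4.45% of all genes were called higher.

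**Figure D2:**
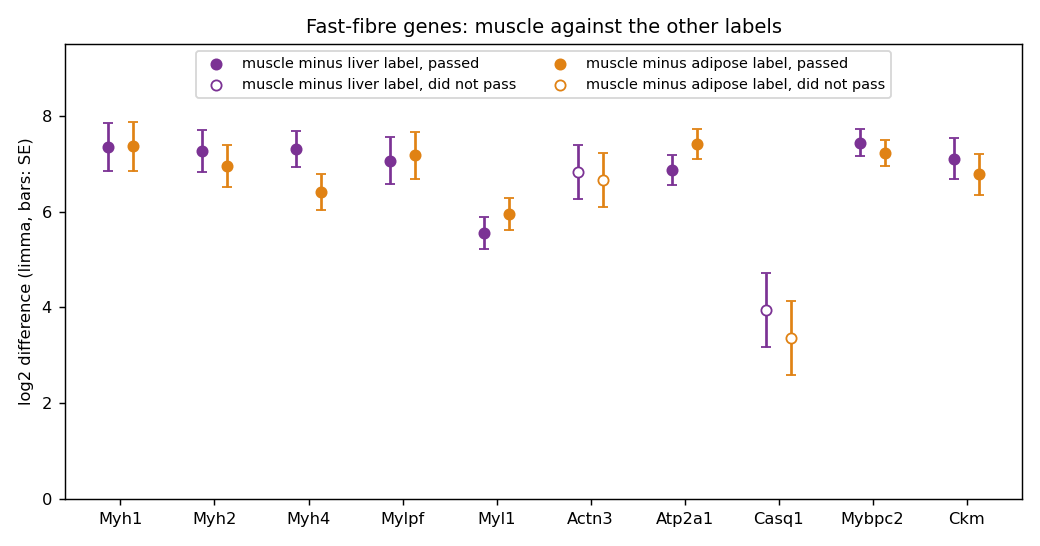
Log2 difference of muscle minus the liver label (purple) and muscle minus the adipose label (orange) for the brightest probe of each fast-fibre gene, as fitted with limma on 6 arrays; bars are SE, and open circles did not pass an adjusted p of 0.05. Estimates lie between 5.55 and 7.44 except for Casq1, at 3.95 and 3.35.

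Muscle genes of several kinds differed between the arrays of the other labels. The 13 slow-fibre counterparts had a median of 8.85 on the MCSE adipose and 11.41 on the PBS adipose array, and 6 heart markers had medians of 8.52 and 12.20, whereas those of the 10 fast-fibre genes were 8.89 and 9.18. The members divided evenly there, with 5 of 10 above 0 in the MCSE minus PBS difference of the adipose label and the other 5 below. Casq1 lay at 9.51 on the MCSE adipose and 11.65 on the PBS adipose array and Actn3 at 8.66 and 10.05, whereas Mylpf lay at 9.37 and 8.30. Other fast-fibre lists were mixed in the MCSE minus PBS difference of this label. Above 0 were 3 of 6 genes of the fast thin filament and its regulators and 3 of 14 of calcium release and buffering. Of glycogen and glycolysis genes 7 of 10 were above 0. Pvalb, the calcium buffer of fast fibres, lay at 13.34 on the PBS adipose and 10.45 on the MCSE adipose array. Myl2, the slow and ventricular regulatory light chain, lay at 9.99 on the MCSE adipose and 15.15 on the PBS adipose array. Under the liver label 3 of 10 members were above 0, and Mb, the oxygen store of red muscle and heart, lay at 8.40 on the MCSE liver and 12.54 on the PBS liver array. The summed linear intensity of the 10 fast-fibre genes was 573141 in PBS muscle, against 6049 under the PBS liver label and 8329 under the PBS adipose label.

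The second question was how these genes differed with MCSE in muscle. There was 1 array per treatment, so no p-value is given. Of the 10 members 0 differed by 2-fold in either direction, against 2.53% of all genes at least 2-fold higher and 1.21% at least 2-fold lower with MCSE. The median log2 difference of the members was -0.05, against -0.025 over all genes, with 3 members above 0 and 7 below it, although Actn3 and Atp2a1 were above 0 with a lowess trend removed, and Actn3 and Casq1 with the mean over probes. Of all genes 44% lay above 0. As a gauge of technical error, the differences of 2 probes of the same gene scattered with an SD per probe of 0.517 over 1504 genes. Of the 13 member probes 12 lay within it. Most probes of the array did so too. In groups of probes ranked by brightness, the median size of the difference was 0.129 to 0.318.

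The heavy chains spanned the range of the members. Myh4, of the fastest fibres, was 0.57 lower with MCSE on the log2 scale (difference -0.57, or 0.675 times the PBS level), with linear intensities of 45658 in MCSE muscle and 67631 in PBS muscle. Myh1 was at -0.06 on its bright probe and at -0.48 on the dim one. Myh2, of the more oxidative fast fibres, was at 0.29 (1.22 times the PBS level). The difference of Myh7, the slow heavy chain, was 3.54 on its bright probe and 0.16 on a dim one. Taken by bright probes, the differences ran from -0.57 for Myh4 through -0.06 for Myh1 and 0.29 for Myh2 to 3.54 for Myh7. In this order the neighbouring fast chains were apart by no more than that SD. Fibre types themselves were not measured. The fast chains are highly similar in sequence, the probe sequences were not used here, and signal from one chain on another's probe cannot be told apart.

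Among the other members the differences were small. Those of Mylpf (0.01), Actn3 (-0.03), Atp2a1 (-0.04), Myl1 (0.10), Mybpc2 (-0.12) and Ckm (-0.13) were all below 0.15 in size, as was that of Myh1. Casq1 was at -0.26 on the probe with the higher mean over 6 arrays and at 0.37 on the other, so that its sign depended on the probe. A second Actn3 probe gave 0.21. The second Actn3 probe (14.41 in MCSE and 14.21 in PBS muscle) and both Casq1 probes lay outside the top 1% of probes on at least 1 muscle array. They differed by less than 0.4 in size. The dim Myh1 probe, also outside the top 1%, was at -0.48.

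Closeness to the top of the scale limits what could be seen for the rest. In each muscle array the top 1% comprised 299 probes, and 9 of the 13 member probes were in it on both arrays, against 0.812% of all probes. No member probe was in the top 1% of any other array (0 of 13). Myh4 was the 4th brightest of all probes in PBS muscle, Actn3 the 5th, Atp2a1 the 6th and Mylpf the 8th, and these 4 probes were at or above 65535, the largest value that a 16-bit scanner records. In MCSE muscle Mylpf was the 7th and Actn3 the 8th, and Myh4 the 90th. Because the values were rescaled after scanning and the scale runs to 87295, the scanner's own limit could not be read from them, and saturation flags were not used here. Brightness also depends on the probe, so these ranks do not order the genes by transcript number.

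The spread of the differences depended on brightness and was not widest at the top. Among the 100 brightest probes of the muscle pair, which included 9 members, the SD of the MCSE minus PBS difference was 0.258, and 1 probe was 2-fold higher and 0 were 2-fold lower. Among ranks 301 to 1000, which held 3 member probes (both of Casq1 and the second of Actn3), the SD was 0.549, with 21 probes 2-fold higher and 17 lower. The SD was highest, at 0.743, among ranks 1001 to 3000, and was 0.310 among the dimmest 19922 probes. Read against its own range of brightness, the Myh4 difference was the third lowest of the 100, and 4 of the 100 were at least as large in size. For Myh2 18 of the 100 were as large in size, and for Ckm 57.

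**Figure D3:**
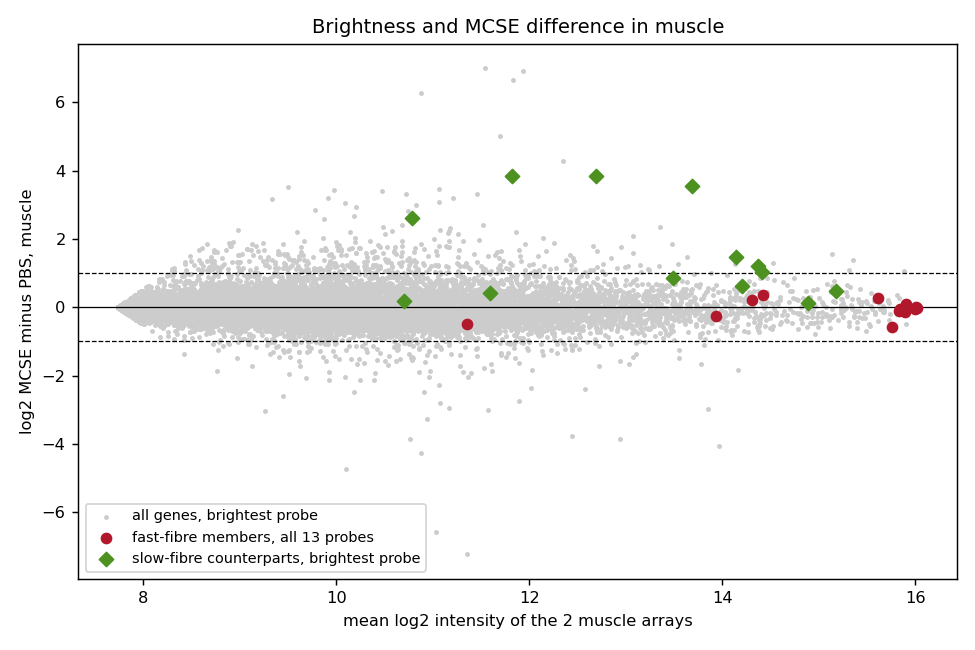
Log2 MCSE minus PBS difference in muscle (vertical axis) against the mean log2 intensity of both muscle arrays (horizontal axis), for the brightest probe of 16675 genes (grey), the 13 fast-fibre probes (red) and 13 slow-fibre counterparts (green); dashed lines mark 2-fold. The fast-fibre probes crowd at the bright end between -0.57 and 0.37. At or above 1 lie 7 of 13 slow-fibre counterparts, against 2.53% of all genes.

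The slow counterparts of the members had higher differences on the same arrays. Of 13 genes listed as slow-fibre counterparts 13 lay above 0, against 44% of all genes. At least 2-fold higher were 7, against 2.53% of all genes, and the median was 1.04. The highest were Tnni1 (3.84) and Tnnt1 (3.84), the slow troponins I and T, followed by Myh7 (3.54) and the slow tropomyosin Tpm3 (2.62). This list and its direction were known from earlier results of these data, and it is not independent support for any shift. Set gene by gene against 8 fast members on the brightest probes, the listed counterpart had the higher difference in 8 of 8 pairs. The median gap was 0.64. Myh7 was set against Myh4, the lowest of the 3 fast heavy chains. For the calsequestrins Casq2 was at 0.41, and Casq1 at -0.26 or, on its other probe, at 0.37. Not every pair sets a fast form against a slow one. Ckmt2 encodes the mitochondrial creatine kinase, and Actn2 is not confined to slow fibres. For the calcium pumps, Atp2a2 was at 1.04 and Atp2a1 at -0.04, and for the essential light chains Myl3 was at 1.21 and Myl1 at 0.10. Regulatory light chains gave 0.62 for Myl2 and 0.01 for Mylpf, and the alpha-actinins 0.47 for Actn2 and -0.03 for Actn3. On the brightest probes the gap was smallest for the creatine kinases, with Ckmt2 at 0.12 and Ckm at -0.13. Next came the myosin-binding proteins, with Mybpc1 at 0.17 and Mybpc2 at -0.12. In 3 of the 8 pairs, those of Atp2a2, Myl3 and Myh7, the gap exceeded the SD expected for a difference between 2 probes. The counterpart probes reached at most 15.46 in MCSE and 14.94 in PBS muscle, and the part that the top of the scale had in these gaps was not tested.

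Other genes of the fast-fibre machine were read from further gene lists. Of 6 genes of the fast thin filament and its regulators 0 passed 2-fold, with a median of -0.29. Tnnt3, the fast troponin T that holds troponin on tropomyosin, lay at 15.14 in MCSE and 15.83 in PBS muscle (difference -0.69), and Mylk2, the kinase of the fast regulatory light chain, was at -0.45 and -0.67 on its probes. Myoz1, a Z-disc protein of fast fibres, was at 0.44 and Tnnc2, the calcium-binding fast troponin, at 0.07. Tnni2, the fast inhibitory troponin, was dim on all arrays (8.42 in MCSE and 8.54 in PBS muscle), and its values overlapped between labels. Against the liver label 0 of the 6 passed with limma, where 0.216% of all genes were called higher, and against the adipose label Tnnt3 passed (6.51 ± 0.52 SE, limma adjusted p 0.0463).

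Of 14 genes of calcium release and buffering 8 lay above 0 with MCSE, 0 were 2-fold higher and 1 was 2-fold lower (median 0.08). The one was Jph2, a junctophilin that ties the reticulum to the surface membrane, at -1.12 and at -0.74 on its other probe. Pvalb was at 0.35, Ryr1, the release channel, at 0.23 and -0.19 on its brighter probes, and Cacna1s, its voltage sensor, at 0.49. Cacna1s exceeded the liver label by 4.98 ± 0.32 (SE, limma adjusted p 0.0355) and Cacng1, another subunit of that channel, by 5.28 ± 0.25 (limma adjusted p 0.0309). These were the 2 of 14 that passed in either comparison, against 0.216% of all genes for the liver and 0.264% for the adipose label.

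Of 10 glycogen and glycolysis genes on the array (of 12 listed) 4 lay above 0 with MCSE, 1 was 2-fold higher and 0 were 2-fold lower (median -0.08). The higher one was Eno3, the muscle enolase, at 15.91 in MCSE and 14.36 in PBS muscle on its bright probe (1.55) and 0.05 apart on a dim one. Pygm, the glycogen phosphorylase of muscle, was at -0.38 and Pfkm, its phosphofructokinase, at -0.39 and -0.90 on its probes. Pfkm and Phka1, a subunit of phosphorylase kinase, were the 2 of 10 that passed with limma against both the liver and the adipose label. Of all genes 0.216% were called higher against the liver and 0.264% against the adipose label. Pfkm exceeded the liver label by 5.48 ± 0.35 (SE, limma adjusted p 0.0357). Of 10 genes listed as contractile genes of all striated fibres 0 passed 2-fold with MCSE (median -0.01). The list also holds Mb, the oxygen store, which is not contractile. Acta1, skeletal actin, was at 0.01 and Tcap, a Z-disc cap of titin, at -0.03. Myom1 and Myom2, which cross-link myosin at the M-band, were the 2 of 10 that passed with limma against both labels, beside the same shares of all genes.

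Regulators of fibre type had a median of -0.41 in muscle over 9 of 10 genes found, with 0 at least 2-fold higher (2.53% of all genes) and 3 lower (1.21%). Mef2c, one of the MEF2 factors, lay at 12.43 in MCSE and 13.80 in PBS muscle (difference -1.37). Six4, a homeobox factor that drives fast-fibre genes, was at -2.14 on its representative probe and at -0.10 on the other. Nfatc1, a calcium-dependent factor of slow fibres, was at -1.17 on its representative probe and at -0.05 and -0.09 on the others, so for both only 1 probe carried the difference. Tbx15, a factor of glycolytic fibres, was at -0.94 and -0.56. Above 0 were 2 of the 9, against 44% of all genes. These were Myod1 at 0.67 and Eya1 at 0.35, with Eya1 at -0.185 on its other probe.

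**Figure D4:**
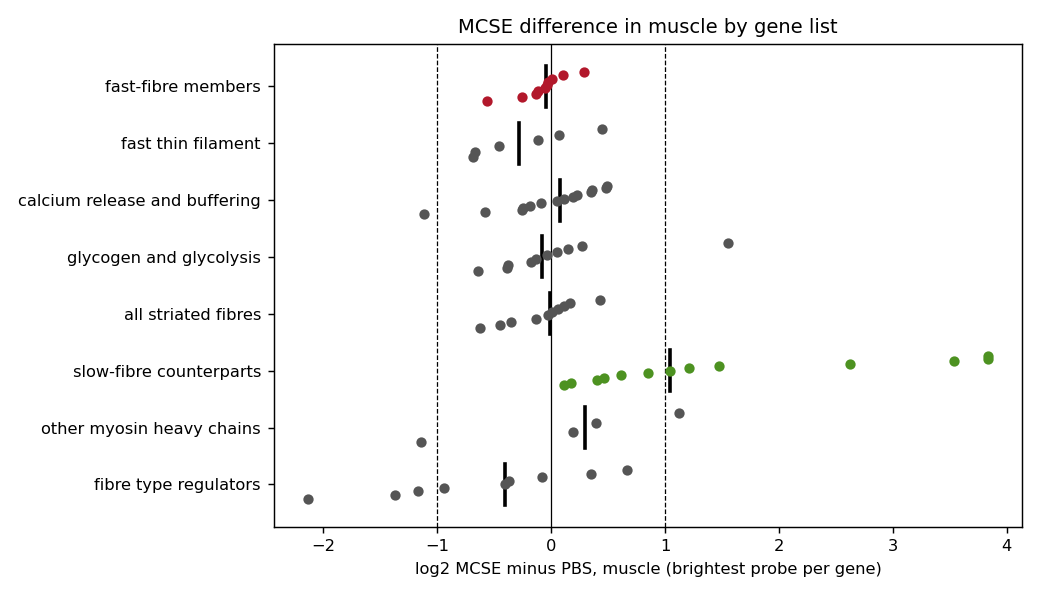
Log2 MCSE minus PBS difference in muscle for the brightest probe of each gene (points), by gene list, with the median of each list as a black bar and dashed lines at 2-fold. The fast-fibre members (red) lie between -0.57 and 0.29 around a median of -0.05, and the slow-fibre counterparts (green) between 0.12 and 3.84 around 1.04.

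Markers of other cells also differed between the muscle arrays. The summed linear intensity of 8 kidney markers was 12884 in MCSE and 4693 in PBS muscle, with 7 of 8 above 0. Most of this gap was Kap, an androgen-regulated kidney gene (7181 in MCSE and 780 in PBS muscle), and the other 7 summed to 5702 and 3913, with Slc34a1 at a log2 difference of 1.12. The sum over 8 hepatocyte markers was 6595 in MCSE and 11351 in PBS muscle, with 1 of 8 above 0. Without Alb, the albumin gene (1389 in MCSE and 5227 in PBS muscle), the other 7 summed to 5255 and 6123. The 6 heart markers summed to 25753 in MCSE and 32625 in PBS muscle, with 2 of 6 above 0. Actc1, cardiac actin, made up about as much of each sum as the other 5 (12573 in MCSE and 16235 in PBS muscle without it). Myl7 (1.79), an atrial light chain, and Myh6 (-1.15), a cardiac heavy chain, differed by over 2-fold in opposite directions. The 6 adipocyte markers summed to 85860 in MCSE and 102145 in PBS muscle, and to 34134 and 30001 without Fabp4, so that the order turned. Intensities have no 0 on this scale, and the hepatocyte markers Apoh and Tat were at the lower limit of 7.74 on the MCSE muscle array. The summed intensity of the 10 fast-fibre genes was 546878 in MCSE and 573141 in PBS muscle, and 501220 and 505511 without Myh4. The genes left out of these sums, those with the largest linear difference in their list, were chosen after the values were seen. Among 12 proteasome genes Psma4 was at -1.42 and 11 were above 0. The part of other tissues in the differences was not tested.

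Under the other labels the medians of the members were 8.81 to 9.18, near the median of all probes. An MCSE difference there was not read as one of fast fibres. Myl1 (up to 10.36) and Casq1 (up to 11.65) were brighter than these medians. On the liver label 0 of 10 were 2-fold apart (against 5.68% of all genes higher and 4.09% lower), with a median of -0.24 and a range from -0.65 for Actn3 to 0.99 for Myh1, whose values there were 8.99 with MCSE and 8.0 with PBS. On the adipose label Mylpf was 2-fold higher (1.07) and Casq1 (-2.14) and Actn3 (-1.38) were 2-fold lower, where 29.9% of all genes were 2-fold higher and 27.2% lower. On the second probes the differences were -0.12 for Casq1, 0.03 for Actn3 and -2.30 for Myh1. The median of the members there was -0.08.

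The genes whose pattern was most like that of the members were sought among 4740 genes that reached the upper quartile of all probes on both muscle arrays and stood on no list. By Pearson correlation with the median profile of the members over 6 arrays, the closest were Ubap2, Stac3, Mylc2pl, Cap2 and 1110003O08Rik, with r from 0.999 to 1.000. With 2 bright and 4 dim arrays such a correlation mainly reflects the contrast of muscle with the rest. Stac3 lay at 12.43 in MCSE and 12.38 in PBS muscle, against 7.74 to 8.10 elsewhere. Mylc2pl, a myosin light chain gene by its annotated symbol, lay at 15.24 and 15.05 in MCSE and PBS muscle, against 7.98 to 8.24 elsewhere. Ubap2 followed the same shape over a narrow range, at 12.26 and 12.31 in MCSE and PBS muscle against 10.82 to 10.89 elsewhere. Among the members themselves, each gene correlated with the median of the other 9 at 0.989 or more except Casq1, at 0.941.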

How the data were processed

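The authors deposited normalized intensities on a linear scale for 29922 probes and 6 one-colour (Cy5) arrays. Per the submitters' processing notes limma was used, with no version or role. The background correction and normalization are not given in the sources used here. Sorted log2 values differed between the arrays by at most 0.038 from their median, so the deposited intensities share 1 distribution.

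A lower limit was set at the 5th percentile (214.2) before taking log2. The platform annotation gave 1 symbol for 21020 probes, 0 had several and 8902 had none, and the list members were matched through RefSeq synonyms. A gene was represented by its brightest probe (mean over 6 arrays). Differences between tissue labels came from limma 3.58.1 under R 4.3.3 (lmFit, eBayes, Benjamini-Hochberg, no filter on dim probes, 3 residual degrees of freedom, prior 1.4), checked on simulated data. MCSE and PBS were compared without a test, since there was 1 array each. With few arrays per group, their number limits the precision. Per the labels nothing shows separate mice, so p-values measure the spread between these arrays only.

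By rule the text could name all 10 members, list genes past 2-fold or called, fast and slow counterparts, and the 5 genes closest in pattern. Other list genes were named after their values were seen. The members and lists were chosen with earlier results of these data known. Python 3.11.15, numpy 2.4.6, pandas 2.3.3, statsmodels 0.14.6 and matplotlib 3.10.9 were used. Alternatives covered scaling, centring, a lowess trend, probe summary, 32 added before log2, thresholds, filters, the model and left-out arrays.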

Additional observations from a re-analysis of the deposited data

Results flagged for a closer look

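Among the members and lists, 2 slow-fibre genes differed by at least 2-fold in opposite directions on the muscle pair and the liver-labelled pair, and the difference between the pairs was not tested. Myl3, the slow essential light chain, was at 1.21 in muscle and at -2.89 on the liver label. Myoz2, a Z-disc protein of slow fibres and heart, was at 1.47 in muscle and at -1.24 on the liver label. No fast-fibre member did so (0 of 10). The 6 heart markers were also lower with MCSE on the liver label, with a median of 8.70 against 10.60 with PBS.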

How the results depend on the processing

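In muscle, the counts of members 2-fold higher and lower stayed at 0 under all 7 alternatives (quantile scaling, centring, lowess, mean over probes, 32 added, a 1.5-fold threshold, and without the top 1% of probes, which left 3 members). Their median difference of -0.05 ranged up to -0.002 (lowess) and was -0.26 over those 3 members. No estimate of a member against either label changed sign. The counts of limma calls did change. Against the liver label 8 members and 36 genes were called. With treatment as a term 0 members and 0 genes were called, and with a trend in eBayes also 0 and 0. With only the 4 muscle and liver arrays 2085 genes were called, 10 members among them. Leaving out each array in turn gave 0 to 10 members and 0 to 2085 genes. Against the adipose label 8 members and 45 genes were called. With treatment as a term, with a trend, and with only the 4 muscle and adipose arrays the counts were 0 members and 0 genes. Leaving out each array gave 0 to 10 members and 0 to 6042 genes, with 10 members when an adipose array was left out and 0 when any other was. A label left with 1 array was assumed to vary like the rest. The other settings called 8 or 9 members. The cause of these changes was not tested. No pairing by replicate number was possible because the labels carry none. The fit with treatment as a term, given above, is the paired comparison this design allows, since it sets the labels against each other within MCSE and within PBS.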

Other observations

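Of the other heavy chain genes of the chromosome 11 cluster, Myh3 and Myh8 overlapped in muscle with at least 1 array of the other labels. Myh13 was not found on the array. Myh3, the embryonic chain, lay at 10.27 in MCSE and 9.15 in PBS muscle (difference 1.12), against 8.21 to 10.09 elsewhere. Myh8, the perinatal chain, lay at 12.37 in MCSE and 11.98 in PBS muscle on its brightest probe, against 12.58 on the PBS adipose array. Myh6, a cardiac chain outside this cluster, was at -1.15 in muscle. The list of other sarcomeric heavy chains had 4 genes found of 5 listed, namely Myh3, Myh8, Myh6 and Myh7b. Of these 4, 0 lay above the 4 other arrays on both muscle arrays, against 10.9% of all genes. With limma 0 of the 4 passed against either label. Of all genes 0.216% were called higher against the liver and 0.264% against the adipose label. Counts of 0 among 4 genes are close to these shares.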
